A study of Mus musculus with 12 samples.

Results

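The phospholipid synthesis and remodelling genes followed here were 9 of the 25611 genes in a table of liver read counts, taken by their symbols: Chka, Pcyt1a, Etnk2, Pcyt2, Pemt, Pisd, Lpcat3, Lpcat1 and Lpcat2. All 9 passed the filter on low counts and were among the 13190 genes tested. The 12 mice were male C57BL/6J animals aged 8 to 10 weeks, and poly(A)-selected RNA of the whole liver of each was sequenced 30 hr after surgery. In sham mice (n = 4) the abdomen was only opened. In CLP mice (n = 4) the cecum was tied off and punctured (cecal ligation and puncture), which releases gut bacteria and causes sepsis. CLP+DCA mice (n = 4) had the same operation and were given dichloroacetate (DCA), an inhibitor of pyruvate dehydrogenase kinases, at 25 mg/kg into the peritoneum at 24 hr, which was 6 hr before the liver was taken. Saline was given to each mouse after surgery, and what the sham and CLP mice received in place of DCA is not given in the sources used here. The comparison of CLP with sham asks what sepsis does to liver transcripts, and the comparison of CLP+DCA with CLP asks what the drug changes in septic liver.

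Phosphatidylcholine and phosphatidylethanolamine are the main phospholipids of liver membranes, and phosphatidylcholine also coats lipoproteins and is secreted into bile. Choline and ethanolamine are phosphorylated, activated with CTP and joined to diacylglycerol, the CDP-choline and CDP-ethanolamine routes. Hepatocytes also make phosphatidylcholine by methylating phosphatidylethanolamine, and mitochondria make phosphatidylethanolamine from phosphatidylserine. Acyl chains are then exchanged by removal of a fatty acid and its replacement by lysophospholipid acyltransferases.

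The libraries held 24436513 to 44266819 counted reads. Hepatocyte markers dominated in every mouse, with the summed level of 7 genes at 62064 to 81422 CPM in the sham mice, 28373 to 44535 CPM in the CLP mice and 25695 to 57171 CPM in the CLP+DCA mice (CPM, read counts per 1000000 reads of the normalized library). Most of that sum is Alb: 2 of the 7 genes (Alb and Ttr) were lower in every CLP mouse than in any sham mouse, and the other 5 overlapped. Of those 5, Apoa1, Cps1, Cyp2e1 and Tat had lower means in CLP than in sham, such as 1823 against 3367 CPM for Cps1. Only Hnf4a, a transcription factor of hepatocyte identity, did not, with means of 714 CPM in sham and 739.6 CPM in CLP. Of 8 neutrophil markers, 7 passed the filter, and their sum was 6.24 to 8.97 CPM in sham, 29.7 to 39.7 in CLP and 6.16 to 49.0 in CLP+DCA, with Camp at 0 in every sham mouse. In 7 of the 8 every CLP mouse was above every sham mouse, but Ly6g, a defining marker of neutrophils, had a lower mean in CLP (0.459 CPM) than in sham (0.823 CPM). The sum of 9 Kupffer cell and macrophage markers was 150 to 255 CPM in sham, 242 to 321 in CLP and 199 to 389 in CLP+DCA, with Marco and Itgam above every sham mouse in all CLP mice and the other 7 genes overlapping. Markers of stellate cells and bile duct (7 genes) summed to 64.0 to 102 CPM in sham, 123 to 179 in CLP and 82.1 to 255 in CLP+DCA, and 8 lymphocyte markers to 1.98 to 3.86, 0.449 to 1.55 and 0.650 to 2.62 CPM. The sum of 5 endothelial markers was 81.8 to 104 CPM in sham, 96.9 to 119.98 in CLP and 78.9 to 116 in CLP+DCA. CLP+DCA replicate 3 stood apart from the other mice of its group: on the first principal component of all tested genes, with 59.2% of the variance, it lay at 82.6, against -28.9 to -16.4 for the other 3, -40.6 to -33.1 for sham and 8.66 to 72.8 for CLP. It also held the highest neutrophil and stellate and bile duct sums and the lowest hepatocyte sum of the 12 mice. Results that rest on this mouse are given with and without it. The mouse was singled out by these same expression values, on the side of the CLP mice. Leaving it out can therefore widen CLP+DCA versus CLP by itself, and the values without it are a description. In RNA of whole liver, fewer cells of a type and less RNA per cell cannot be told apart.

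In CLP versus sham the genes of phosphatidylethanolamine methylation (Pemt), CDP-ethanolamine synthesis (Pcyt2), phosphatidylcholine acyl remodelling (Lpcat3) and CDP-choline synthesis (Pcyt1a) were lower in every CLP mouse than in any sham mouse. Their fitted ratios of CLP to sham ran from 0.697 to 0.807. Lpcat1 was higher in every CLP mouse than in any sham mouse. None of the 9 members passed an adjusted p of 0.05 in the fit to all 12 mice, in which 2.78% of the tested genes were called (edgeR quasi-likelihood test, Benjamini-Hochberg adjustment over all tested genes). The 5 of 9 members whose groups did not overlap stand beside 26.5% of all tested genes with that property. The unadjusted p was below 0.05 for 4 members (Lpcat3, Pcyt2, Pemt and Chka), as it was for 3772 of the 13190 genes. The 4 were called when the spread was estimated from the 8 sham and CLP mice alone, where 18.3% of genes were called, and when CLP+DCA replicate 3 was left out, where 23.8% were called.

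**Figure D1:**
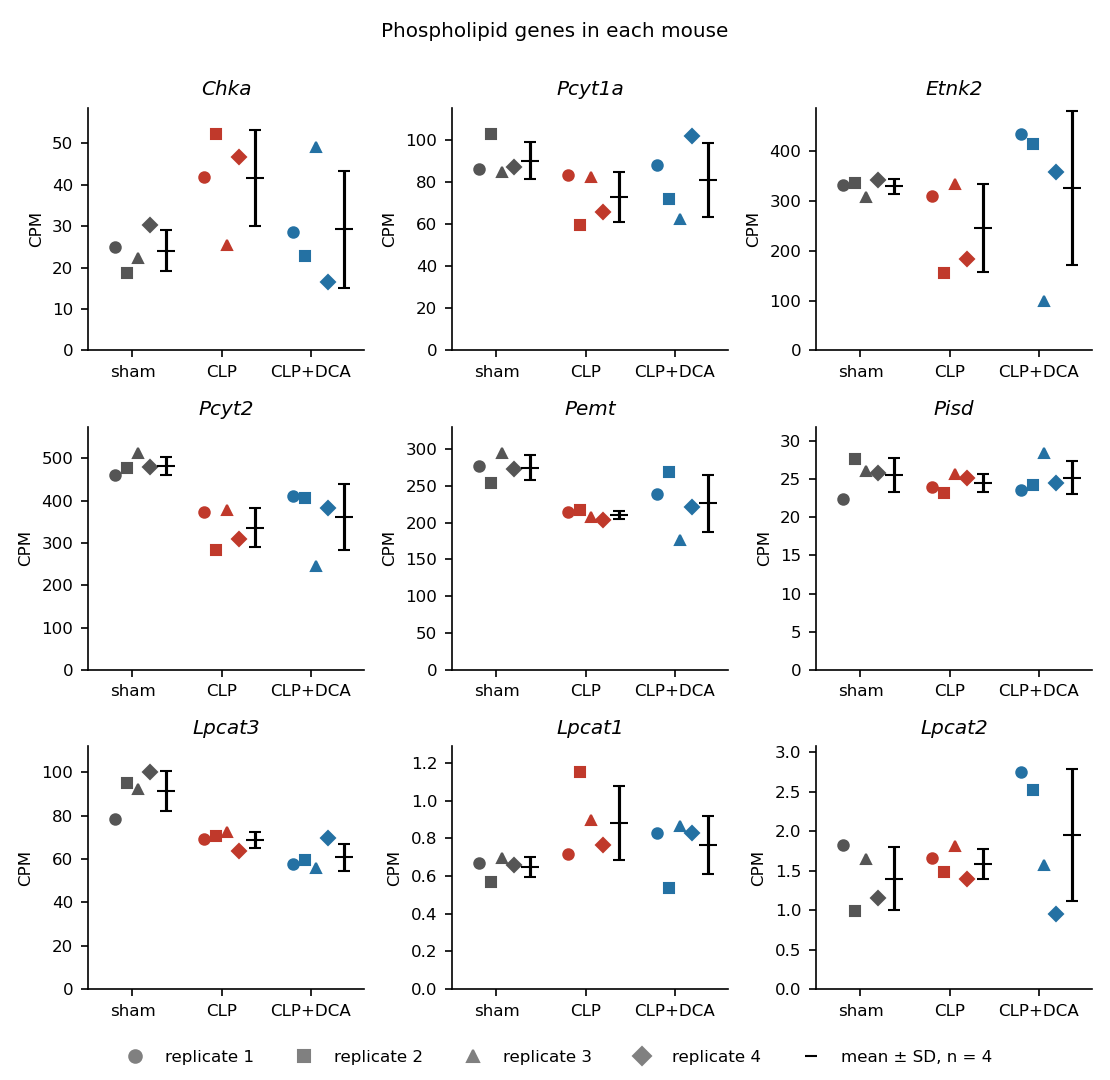
CPM of the 9 members in each mouse, with the CPM axis of each panel starting at 0, group on the other axis, a marker shape for each replicate number and a bar for the mean ± SD (n = 4). Pemt, Pcyt2, Lpcat3 and Pcyt1a sit lower in all 4 CLP mice than in all 4 sham mice, and CLP+DCA replicate 3 (triangle) is the lowest of its group in 5 of the 9 panels.

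Levels of different genes were compared per kilobase of exon (RPKM). The exon lengths are those of GENCODE M21, while the annotation behind the counts is not given. The order therefore depends on the lengths, which the SDs between mice do not cover. By CPM alone Pcyt2 (mean 482 in sham, 4346 bases of exon) was above Pemt (mean 275 in sham, 2104 bases). In sham liver Pemt was the most abundant member per length, at 130.5 ± 7.88 RPKM (SD, n = 4), followed by Pcyt2 at 110.9 ± 5.03 and Etnk2 at 72.2 ± 3.30. Lpcat3 was at 28.0 ± 2.84 RPKM and Pcyt1a at 12.2 ± 1.16. Pisd (4.44 ± 0.387 RPKM), Chka (2.004 ± 0.410), Lpcat2 (0.414 ± 0.117) and Lpcat1 (0.140 ± 0.0119) followed. No neighbours in this order overlapped in sham. In CLP the order of the means was the same, but the mice overlapped between Pcyt2 and Etnk2 and between Pisd and Chka. In CLP+DCA they overlapped between Pemt and Pcyt2 and between Pcyt2 and Etnk2. Lpcat3 was the most abundant of the 3 LPCAT genes per length in all 3 groups, with means of 28.0, 21.1 and 18.6 RPKM in sham, CLP and CLP+DCA.

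The 250 bases before the annotated start are shown for Lpcat3, Chka and Pemt, the first of which had the smallest p among the members, the second the largest fitted difference, and the third the only STAT-type match. The runs are RefSeq sequence on GRCm38.p6, written 5′ to 3′ on the strand of the gene, with matches to the searched motifs in capitals.
Lpcat3, chr6:124662854-124663103, plus strand: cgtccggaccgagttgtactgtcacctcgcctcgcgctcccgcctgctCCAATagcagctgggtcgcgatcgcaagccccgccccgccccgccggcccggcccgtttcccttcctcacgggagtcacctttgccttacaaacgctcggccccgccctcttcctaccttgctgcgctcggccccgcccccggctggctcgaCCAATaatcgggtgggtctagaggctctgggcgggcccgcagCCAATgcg
Chka, chr19:3851523-3851772, plus strand: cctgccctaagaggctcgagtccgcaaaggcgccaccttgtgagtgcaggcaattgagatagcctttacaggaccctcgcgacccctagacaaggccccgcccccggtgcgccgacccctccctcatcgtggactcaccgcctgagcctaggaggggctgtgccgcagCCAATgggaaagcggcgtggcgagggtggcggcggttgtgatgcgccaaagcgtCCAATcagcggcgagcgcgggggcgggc
Pemt, chr11:60040189-60040438, minus strand: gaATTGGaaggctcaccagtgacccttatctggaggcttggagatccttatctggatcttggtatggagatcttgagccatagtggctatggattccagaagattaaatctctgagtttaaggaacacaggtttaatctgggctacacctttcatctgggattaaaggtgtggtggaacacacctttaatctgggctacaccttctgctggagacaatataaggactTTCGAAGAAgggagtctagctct

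The motifs, each searched on both strands over the 250 bases before and 50 after the start, were CCAAT (the NF-Y box), TTCNNNGAA (STAT), CACGTG (E-box), ATCACCCCA (a sterol element) and GGGACTTTC (kB). In the printed runs the Lpcat3 sequence holds 3 CCAAT boxes and the Chka sequence 2. The Pemt sequence holds the same box on the other strand (ATTGG) and, 23 bases before the start, a match to TTCNNNGAA. Among the 12 promoter windows listed for 8 of the members, 5 held CCAAT (those of Chka, Lpcat2, Lpcat3, Pemt and Pisd), against 37.4% of 32851 mouse promoters. The STAT match was in 1 member window, against 8.30% of all promoters. The other 3 motifs were in no member window and in 7.15% (CACGTG), 0.280% (ATCACCCCA) and 0.353% (GGGACTTTC) of all promoters. These are matches of letters and not measured binding. The RefSeq start used for Pemt lies 6301 bases inside the gene as the count table draws it.

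Chka encodes choline kinase alpha, which phosphorylates choline in the first step of the CDP-choline route (GRCm38/mm10 chr19:3851773-3894369, plus strand). Its level was 25.04, 18.6, 22.3 and 30.4 CPM in sham replicates 1 to 4, 41.8, 52.3, 25.4 and 46.8 CPM in CLP, and 28.6, 22.7, 49.0 and 16.4 CPM in CLP+DCA. CLP replicates 1, 2 and 4 were above every sham mouse, and CLP replicate 3 lay within the sham range. The fitted log2 fold change of CLP versus sham was 0.79 ± 0.32 (SE), the largest among the members, with an adjusted p of 0.133 (edgeR). Without CLP+DCA replicate 3, which does not enter the means of either group, the log2 fold change was 0.78 ± 0.24 with an adjusted p of 0.0372 (edgeR). In CLP+DCA, replicate 3 was far above the other 3 mice, which all lay within or below the sham range. CLP+DCA versus CLP was -0.51 ± 0.31 on the log2 scale with all mice (adjusted p = 0.620, edgeR) and -0.88 ± 0.26 without replicate 3 (adjusted p = 0.0698, edgeR; 95% interval -1.45 to -0.30).

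Pcyt1a encodes the alpha form of the enzyme that joins phosphocholine to CTP, the rate-limiting step of the CDP-choline route (chr16:32430921-32475065, plus strand). Sham mice held 86.2, 103.0, 84.7 and 86.9 CPM. CLP mice held 83.3, 59.4, 82.5 and 66.0 CPM, all below the lowest sham mouse but, in replicates 1 and 3, by under 3 CPM. CLP+DCA mice spread from 62.2 to 102 CPM, with 88.0 and 71.7 in replicates 1 and 2, 62.2 in replicate 3 and 102 in replicate 4, over the ranges of both other groups. The log2 fold change of CLP versus sham was -0.31 ± 0.16 (SE; adjusted p = 0.223, edgeR), and no setting tried called Pcyt1a in any comparison. Of the gene's 100-base runs, 6.38% also occur in other genes, nearly all in Slc51a, which had at most 1 read in a mouse.

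Etnk2 encodes an ethanolamine kinase abundant in liver, which takes the first step of the CDP-ethanolamine route (chr1:133363572-133380319, plus strand). Sham mice lay close together, at 332, 335, 308 and 343 CPM. CLP mice fell into 2 levels, with 310 and 333 CPM in replicates 1 and 3 and 156 and 183 CPM in replicates 2 and 4. CLP+DCA mice held 435, 414, 99.5 and 358 CPM, so 3 of the 4 were above every sham mouse and replicate 3 was the lowest of all 12. The 3 mice with the lowest Etnk2 were also the 3 in which the 20 most abundant genes took the largest share of reads, 41.9% and 40.0% in CLP replicates 2 and 4 and 40.6% in CLP+DCA replicate 3, against 24.2% to 33.03% in the other mice, and the part of this share in the result was not tested. The log2 fold change of CLP versus sham was -0.42 ± 0.38 (SE; adjusted p = 0.467, edgeR), and lay between -0.26 (without CLP replicate 2) and -0.61 (without CLP replicate 3) when 1 mouse was left out. CLP+DCA versus CLP was 0.41 ± 0.38 with all mice (adjusted p = 0.747, edgeR) and 0.71 ± 0.23 without replicate 3 (adjusted p = 0.0793, edgeR; 95% interval 0.21 to 1.21).

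Pcyt2 encodes the enzyme that joins phosphoethanolamine to CTP, the rate-limiting step of the CDP-ethanolamine route (chr11:120610062-120617945, minus strand). It held 461, 476, 513 and 478 CPM in sham, 374, 283, 377 and 310 CPM in CLP, and 412, 407, 246 and 382 CPM in CLP+DCA. All 8 CLP and CLP+DCA mice were below all 4 sham mice. CLP versus sham was -0.52 ± 0.17 on the log2 scale (SE; 95% interval -0.88 to -0.16), a ratio of 0.697, with an adjusted p of 0.0832 (edgeR). CLP+DCA versus sham was -0.41 ± 0.17 (adjusted p = 0.330, edgeR), and -0.27 ± 0.12 without CLP+DCA replicate 3 (adjusted p = 0.526, edgeR). In the comparison of CLP with sham without that mouse, the adjusted p was 0.00969 at the same fold change (edgeR).

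Pemt encodes phosphatidylethanolamine N-methyltransferase, which makes phosphatidylcholine by methylation in hepatocytes (chr11:59970614-60046489, minus strand). Sham mice held 277, 254, 294 and 273 CPM. CLP mice held 214, 216, 207 and 204 CPM, the tightest group of any member, with an SD of 2.82% of the mean. CLP+DCA mice held 239, 269, 176 and 221 CPM, of which 1 lay within the sham range, 1 below the CLP range and 2 between the ranges. CLP versus sham was -0.38 ± 0.12 on the log2 scale (SE; 95% interval -0.66 to -0.11), a ratio of 0.766, with an adjusted p of 0.0852 (edgeR), and 0.0145 without CLP+DCA replicate 3. CLP+DCA versus CLP was 0.11 ± 0.12 with all mice (adjusted p = 0.809, edgeR) and 0.21 ± 0.10 without replicate 3 (adjusted p = 0.191, edgeR; 95% interval -0.01 to 0.42). The summed hepatocyte and lymphocyte markers were lower, and the neutrophil and the stellate and bile duct markers higher, in every CLP mouse than in any sham mouse, alongside the lower Pemt, Pcyt2 and Lpcat3. Of the 7 hepatocyte markers 5 overlapped between CLP and sham, all but Hnf4a with lower means in CLP. At least 1 gene of each other list behind these sums overlapped as well. The part of the marked cell types in the Pemt, Pcyt2 and Lpcat3 values was not tested.

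Pisd encodes phosphatidylserine decarboxylase, the mitochondrial enzyme that forms phosphatidylethanolamine (chr5:32736301-32785626, minus strand). It was the most even member over the 3 groups, at 22.4, 27.7, 26.1 and 25.9 CPM in sham, 23.9, 23.2, 25.7 and 25.2 CPM in CLP, and 23.6, 24.2, 28.4 and 24.6 CPM in CLP+DCA. CLP versus sham was -0.06 ± 0.09 on the log2 scale (SE; adjusted p = 0.670, edgeR), with a 95% interval of -0.25 to 0.13. CLP+DCA versus sham was -0.02 ± 0.09 (95% interval -0.21 to 0.17), and CLP+DCA versus CLP was 0.04 ± 0.09 (95% interval -0.15 to 0.23). Of the gene's 100-base runs, 15.9% also occur in other annotated genes, mostly the predicted gene Gm20671, so part of its reads could be split or left uncounted.

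Copies of Pisd listed as pseudogenes did not all behave alike. Pisd-ps1 (chr11:3124021-3131944), which shares no 100-base run with Pisd, held 8.07 to 12.6 CPM in sham, 14.2 to 37.2 CPM in CLP and 12.9 to 46.6 CPM in CLP+DCA. The CLP and CLP+DCA mice were above all sham mice, with log2 fold changes of 1.23 ± 0.42 for CLP (adjusted p = 0.0928, edgeR) and 1.29 ± 0.42 for CLP+DCA (adjusted p = 0.290, edgeR). The value for CLP+DCA rests largely on replicate 3, as replicates 1, 2 and 4 held 17.1, 16.7 and 12.9 CPM. The 3 highest values of Pisd-ps1, 46.6, 37.2 and 22.9 CPM, were in CLP+DCA replicate 3 and CLP replicates 2 and 4, the mice with the lowest Etnk2. Pisd-ps3, on an unplaced scaffold, took 127 to 168 CPM in sham, 122 to 139 in CLP and 78.1 to 162 in CLP+DCA, and the sequence it shares with Pisd was not analysed here. Pisd-ps2 stayed below 0.82 CPM in every mouse.

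Lpcat3 encodes the lysophosphatidylcholine acyltransferase that places polyunsaturated chains in liver phosphatidylcholine and is a known target of the sterol-sensing receptor LXR (chr6:124663104-124704716, plus strand). Sham mice held 78.3, 95.1, 92.3 and 99.96 CPM. CLP mice held 69.1, 70.8, 72.3 and 63.8 CPM, and CLP+DCA mice 57.5, 59.6, 55.9 and 69.95 CPM. All 8 CLP and CLP+DCA mice were below all 4 sham mice, and CLP+DCA replicate 3 lay with 2 other mice of its group. CLP versus sham was -0.41 ± 0.10 on the log2 scale (SE; 95% interval -0.62 to -0.19), a ratio of 0.755, with an adjusted p of 0.0527 (edgeR).

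CLP+DCA versus sham gave the largest difference of Lpcat3, -0.59 ± 0.10 on the log2 scale (95% interval -0.81 to -0.37), a ratio of 0.664. Its unadjusted p of 8.29e-05 was rank 10 of the 13190 genes, and its adjusted p was 0.109 (edgeR). Leaving out CLP+DCA replicate 4, the highest of its group, gave an adjusted p of 0.0448 in this comparison and 0.0426 in CLP versus sham (edgeR), and leaving out CLP replicate 3 gave 0.0463 in CLP versus sham. Without CLP+DCA replicate 3 the adjusted p was 0.117 for CLP+DCA versus sham and 0.0136 for CLP versus sham (edgeR). Leaving out any other single mouse called neither Lpcat3 nor another member in CLP versus sham. The smallest adjusted p among members was then 0.0719 to 0.135 (edgeR). In CLP+DCA versus sham, leaving out any mouse but CLP+DCA replicate 4 called no member, with smallest adjusted p of 0.101 to 0.299 (edgeR). CLP+DCA versus CLP was -0.18 ± 0.10 (adjusted p = 0.565, edgeR; 95% interval -0.40 to 0.03), and those groups overlapped through CLP+DCA replicate 4. The 3′ end of Lpcat3 overlaps Emg1 on the opposite strand, and 6.63% of its 100-base runs occur in both genes. The strand setting of the counts is not given in the sources used here, so reads from the overlap cannot be assigned to either gene. Emg1 held 28.8 to 30.9 CPM in sham, 22.5 to 26.9 in CLP and 23.4 to 30.1 in CLP+DCA, and differed by -0.28 ± 0.09 on the log2 scale in CLP versus sham (adjusted p = 0.0860, edgeR) and by -0.13 ± 0.09 in CLP+DCA versus sham (adjusted p = 0.521, edgeR).

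Lpcat1, a lysophosphatidylcholine acyltransferase best known from lung surfactant, was near the floor of detection, with 16 to 37 reads in a mouse (chr13:73467383-73514538, plus strand). It held 0.670, 0.569, 0.696 and 0.657 CPM in sham, 0.714, 1.15, 0.895 and 0.763 CPM in CLP, and 0.830, 0.538, 0.867 and 0.827 CPM in CLP+DCA. The CLP mice were all above the sham mice, the closest pair 0.714 against 0.696 CPM. CLP versus sham was 0.43 ± 0.23 on the log2 scale (SE; adjusted p = 0.227, edgeR). The 95% interval of the difference, -0.07 to 0.93, includes 0.

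Lpcat2, which is known from leukocytes and also acetylates lyso-platelet-activating factor, had 30 to 86 reads in a mouse (chr8:92855333-92919279, plus strand). It held 1.82, 0.990, 1.65 and 1.15 CPM in sham, 1.66, 1.48, 1.81 and 1.39 CPM in CLP, and 2.75, 2.52, 1.57 and 0.954 CPM in CLP+DCA. The 3 groups overlapped. CLP versus sham was 0.19 ± 0.32 on the log2 scale (SE; adjusted p = 0.700, edgeR) and CLP+DCA versus sham was 0.48 ± 0.32 (adjusted p = 0.515, edgeR). Single mice moved these values, to between 0.05 (without sham replicate 2) and 0.34 (without sham replicate 1) in CLP versus sham and between 0.27 (without CLP+DCA replicate 1) and 0.70 (without CLP+DCA replicate 4) in CLP+DCA versus sham, with no call. The neutrophil and macrophage sums given above were higher in every CLP mouse than in any sham mouse for neutrophils but overlapped for macrophages, and their part in the Lpcat1 and Lpcat2 values was not tested. The related gene Lpcat2b had at most 1 read in any mouse.

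**Figure D2:**
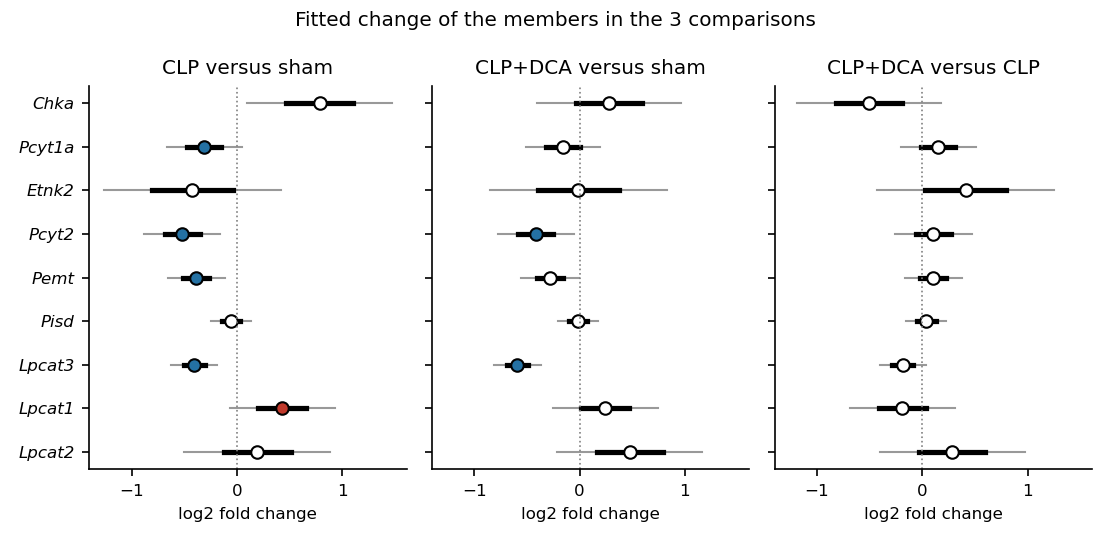
Fitted log2 fold changes of the 9 members in the 3 comparisons, all from the fit to 12 mice: thick bars are ± SE, thin bars the 95% interval, and filled points mark members whose groups did not overlap (blue lower, red higher). In CLP versus sham 4 members are filled blue and 1 red, in CLP+DCA versus sham 2 are blue, and in CLP+DCA versus CLP none is filled.

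In CLP+DCA versus sham, Pcyt2 and Lpcat3 were the members whose groups did not overlap, 2 of 9 against 9.76% of all tested genes. No member was called by the edgeR fit to 12 mice, in which 0.0379% of genes were called, and 3 members (Lpcat3, Pcyt2 and Pemt) had an unadjusted p below 0.05, as did 1714 of the 13190 genes. Without CLP+DCA replicate 3, where 0.0828% of genes were called, there was again no member among them. Pemt was then at -0.18 ± 0.10 on the log2 scale (unadjusted p = 0.102, edgeR), against -0.28 ± 0.12 with all mice (unadjusted p = 0.0452, edgeR). DESeq2 on the 8 mice compared called Lpcat3 (adjusted p = 0.00161, DESeq2), where 1.19% of genes were called, and DESeq2 on all 12 mice called it as well (adjusted p = 1.74e-05, DESeq2), where 1.79% were called. The same test in CLP versus sham on the 8 mice called Lpcat3, Pemt, Pcyt2 and Chka, where 23.2% of genes were called. DESeq2 on all 12 mice called Lpcat3, Pemt and Pcyt2 in that comparison, where 13.4% were called, with Chka at an adjusted p of 0.0804 (DESeq2).

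In CLP+DCA versus CLP no member passed the threshold under any setting. All 9 members overlapped between these groups, against 4.37% of tested genes that did not, and no member had an unadjusted p below 0.05, as 1319 of the 13190 genes did. The 12-mouse fit called 0.00758% of genes and DESeq2 on the 8 mice 0.615%. Without CLP+DCA replicate 3, 4.64% of genes were called, and the smallest adjusted p among members was the 0.0698 of Chka (edgeR). As that mouse was singled out by its expression, the values without it are not a separate test of the drug. The intervals of the difference with all 12 mice allow changes of up to 1.25 on the log2 scale for Etnk2 and down to -1.19 for Chka, but only -0.15 to 0.23 for Pisd. The 2 comparisons with sham share the sham mice, and the 2 comparisons with CLP share the CLP mice, so the 3 sets of values are not independent. The median log2 fold change of the 9 members was -0.31 in CLP versus sham, -0.02 in CLP+DCA versus sham and 0.11 in CLP+DCA versus CLP, beside 0.02, 0.01 and 0.01 for all tested genes.

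**Figure D3:**
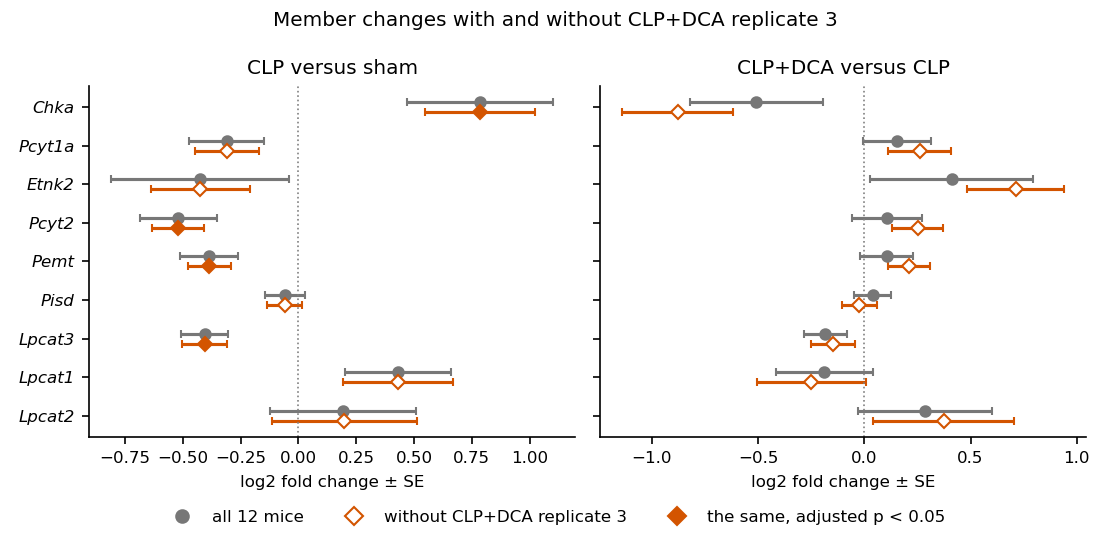
Log2 fold changes ± SE of the 9 members from all 12 mice (grey circles) and without CLP+DCA replicate 3 (orange diamonds, filled where the adjusted p was below 0.05), for CLP versus sham and CLP+DCA versus CLP. In CLP versus sham the points hardly move while the bars of Chka, Etnk2, Pcyt2 and Pemt become shorter, and in CLP+DCA versus CLP Chka moves from -0.51 to -0.88 and Etnk2 from 0.41 to 0.71.

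CLP+DCA replicate 3 was below the other 3 mice of its group for 5 members (Pemt, Pcyt1a, Pcyt2, Lpcat3 and Etnk2), above them for 3 (Chka, Lpcat1 and Pisd) and among them for Lpcat2. In the other 3 mice the means were 402 ± 39.7 CPM (SD, n = 3) for Etnk2, 22.6 ± 6.08 for Chka, 243 ± 24.1 for Pemt and 400.2 ± 16.0 for Pcyt2. For comparison, the 4 CLP mice held 245 ± 89.1 CPM of Etnk2, 41.6 ± 11.6 of Chka, 210.3 ± 5.94 of Pemt and 336 ± 46.7 of Pcyt2.

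Ratios of members were formed within each mouse, which removes the library size. The log2 ratio of Pcyt1a to Pemt, the enzymes of the CDP-choline and the methylation route, averaged -1.61 ± 0.21 in sham mice, -1.54 ± 0.25 in CLP mice and -1.49 ± 0.32 in CLP+DCA mice (SD, n = 4). That of Pcyt1a to Pcyt2 averaged -2.42 ± 0.16, -2.21 ± 0.04 and -2.15 ± 0.27. CLP was 0.21 above sham in this ratio, with 2 of 4 CLP mice above every sham mouse (two-sided exact permutation test, p = 0.0857, adjusted 0.343 over the 9 tests of ratios, smallest possible p 0.0286). The log2 ratio of Lpcat2 to Lpcat3 was -6.00 ± 0.53 in sham mice, -5.39 ± 0.11 in CLP mice and -5.02 ± 0.79 in CLP+DCA mice. CLP was 0.61 above sham in this ratio (exact permutation p = 0.0857, adjusted 0.343) and CLP+DCA 0.98 above sham (exact permutation p = 0.114, adjusted 0.343). None of the 9 ratio tests passed the threshold, and all groups overlapped in all 3 ratios.

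**Figure D4:**
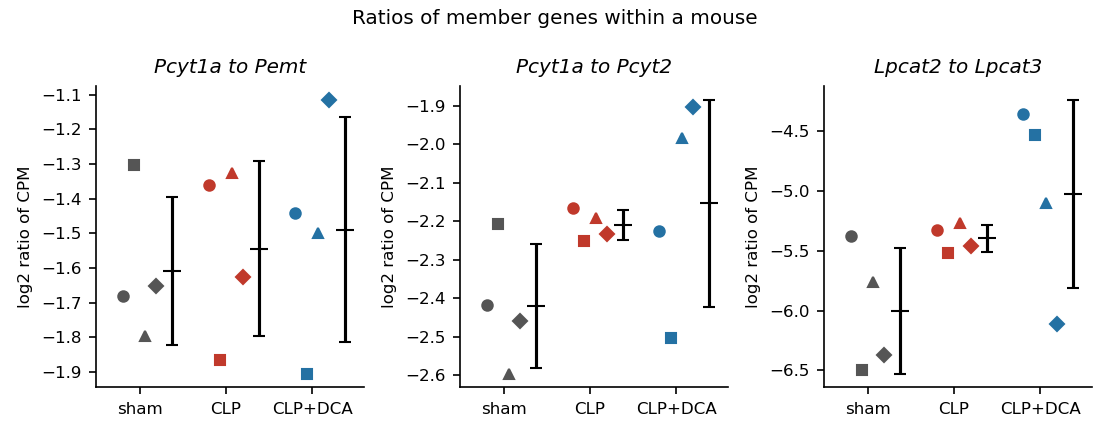
Log2 ratio of the CPM of 2 members within each mouse, by group, with a marker shape for each replicate number and a bar for the mean ± SD (n = 4); the levels of the ratios carry the lengths of the genes, so only differences between groups can be read. The CLP mice lie close together for Pcyt1a to Pcyt2 (SD 0.04) and Lpcat2 to Lpcat3 (SD 0.11), and the groups overlap in each panel.

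The other genes were taken from 10 lists of enzymes and transporters of the pathway and of its regulators, chosen with earlier results of these data known. Of 108 gene symbols listed, some of them aliases of another listed gene, 103 were tested. In CLP versus sham 4 were called higher and 5 lower, 8.74% of those tested, beside the 2.78% of all genes. Of these calls, 2 of the 4 higher and 3 of the 5 lower came from the 15 genes of the LXR and SREBP1 list. As the lists were chosen with earlier results known, the 2 shares do not test whether pathway genes were called more often. In the other 2 comparisons none was called by the edgeR fit to 12 mice. Without CLP+DCA replicate 3, 1 list gene was called higher and 5 lower in CLP+DCA versus CLP, where 4.64% of all genes were called. None was called in CLP+DCA versus sham without that mouse. DESeq2 on all 12 mice called 7 list genes in CLP+DCA versus sham (243 of all genes) and 1 in CLP+DCA versus CLP (137 of all genes). The 9 calls of CLP versus sham depended on single mice, as did the calls among all genes. Without any 1 of the 4 sham mice none of the 9 was called, where 10 to 34 of all tested genes were called. The same held without CLP replicate 2 (16 of all genes called) or CLP replicate 4 (13). Without CLP replicate 1 only Srebf2 was called (79 of all genes). Without CLP+DCA replicate 1 there were 4 list genes called (129 of all genes), and without CLP+DCA replicate 2 there were 5 (142). Without CLP+DCA replicate 3 there were 39, the same 9 among them, where 23.8% of all genes were called. All 9 were kept without CLP replicate 3 or CLP+DCA replicate 4, by DESeq2, and by edgeR on the 8 mice compared. With library size alone 5 of the 9 were kept, without a filter on low counts 4, and with a replicate block 2 (Abcg8 and Scd1).

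**Figure D5:**
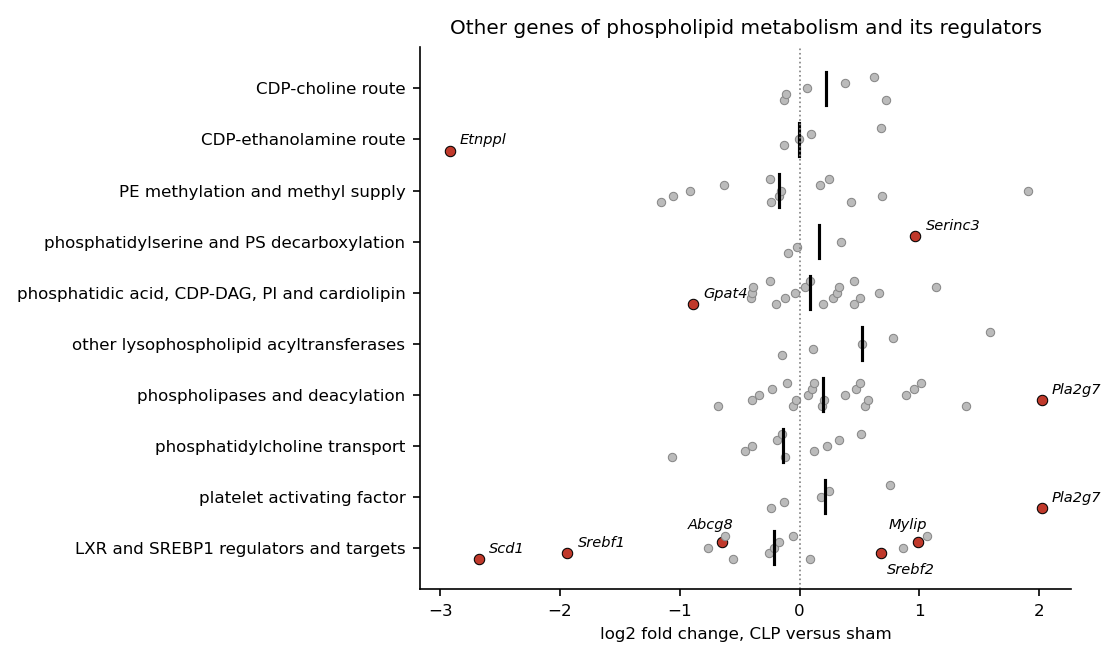
Log2 fold change of CLP versus sham for the tested genes of 10 lists of phospholipid metabolism and its regulators, members left out. Red points passed an adjusted p of 0.05 (edgeR, 12 mice), black bars are list medians, and a gene in more than 1 list is drawn in each. Etnppl (-2.92), Scd1 (-2.68) and Srebf1 (-1.94) lie farthest to the left and Pla2g7 (2.02) farthest to the right among the called genes.

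Along the CDP-choline route (6 genes tested, none called), the choline transporters Slc44a2 and Slc44a1 had the smallest p, with log2 fold changes of 0.62 ± 0.23 (SE; adjusted p = 0.112, edgeR) and 0.72 ± 0.33 (adjusted p = 0.174, edgeR) in CLP versus sham. Along the CDP-ethanolamine route 1 of 5 was called. Etnppl, which breaks down phosphoethanolamine, the substrate of Pcyt2, fell from 79.7 to 223 CPM in sham mice to 4.64 to 28.2 CPM in CLP mice, a log2 fold change of -2.92 ± 0.68 (adjusted p = 0.0476, edgeR). Phospho1, a phosphatase of phosphocholine and phosphoethanolamine, differed by 0.68 ± 0.29 (adjusted p = 0.150, edgeR).

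In the list of methylation and methyl supply, the partner genes of Pemt, 5 of 13 had positive and 8 negative fitted changes and none was called. Mat1a, which makes the methyl donor S-adenosylmethionine in liver, was higher in every CLP mouse than in any sham mouse, with a log2 fold change of 0.69 ± 0.17 (SE; adjusted p = 0.0534, edgeR). Several other genes of this list were lower in every CLP mouse than in any sham mouse, so its genes did not move in 1 direction. Of 4 genes of phosphatidylserine supply upstream of Pisd, Serinc3, a membrane protein linked to serine incorporation, rose from 171 to 213 CPM in sham to 285 to 464 CPM in CLP (log2 fold change 0.97 ± 0.23, adjusted p = 0.0476, edgeR). Serinc1 differed by 0.35 ± 0.14 (adjusted p = 0.131, edgeR).

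Of 19 tested genes of phosphatidic acid, phosphatidylinositol and cardiolipin synthesis, 1 was called. Gpat4, a glycerol-3-phosphate acyltransferase, fell from 202 to 278 CPM in sham to 99.8 to 140 CPM in CLP (log2 fold change -0.89 ± 0.17, adjusted p = 0.0325, edgeR). Agpat3, which acylates lysophosphatidic acid, differed by 0.31 ± 0.10 (adjusted p = 0.0864, edgeR). Of the 5 other lysophospholipid acyltransferases tested beside the LPCAT genes none was called, with Mboat1 at 1.59 ± 0.47 (adjusted p = 0.0739, edgeR; under 1 CPM in every sham and CLP mouse) and Lpgat1 at 0.52 ± 0.17 (adjusted p = 0.0852, edgeR).

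Among 22 tested phospholipase and deacylation genes 1 was called. Pla2g7, the secreted hydrolase of platelet-activating factor and oxidized phospholipids, rose from 1.26 to 2.63 CPM in sham to 6.09 to 11.4 CPM in CLP (log2 fold change 2.02 ± 0.41 SE, adjusted p = 0.0385, edgeR). It is a gene that macrophages also express, and the summed macrophage markers had a median of 197 CPM in sham and 266 CPM in CLP, whose part in this value was not tested. Gdpd1, a lysophospholipase D, differed by 1.39 ± 0.34 (adjusted p = 0.0529, edgeR). Pla2g7 was also the 1 called gene of 6 in the platelet-activating factor list, in which Pafah2 came next at 0.25 ± 0.13 (adjusted p = 0.220, edgeR). None of 10 genes of phosphatidylcholine transport was called, with the carrier Stard7 at -0.46 ± 0.16 (adjusted p = 0.0995, edgeR) and the lipoprotein assembly factor Mttp at 0.33 ± 0.12 (adjusted p = 0.114, edgeR).

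The list of LXR and SREBP1 regulators and targets, to which Lpcat3 belongs by its known control, held 5 of the 9 calls among 15 genes, 2 higher and 3 lower. Scd1, the stearoyl-CoA desaturase, fell to 138 to 663 CPM in CLP (log2 fold change -2.68 ± 0.49 SE, adjusted p = 0.0275, edgeR). Srebf1, the lipogenic transcription factor, fell from 305 to 356 CPM in sham to 45.2 to 140 CPM in CLP (-1.94 ± 0.45, adjusted p = 0.0475, edgeR). Abcg8, a sterol exporter, had a log2 fold change of -0.65 ± 0.12 (adjusted p = 0.0294, edgeR). Srebf2, the transcription factor of cholesterol synthesis, rose by 0.68 ± 0.11 (adjusted p = 0.0202, edgeR), and Mylip, a ubiquitin ligase of the LDL receptor that is itself an LXR target, rose by 0.99 ± 0.21 (adjusted p = 0.0403, edgeR). Among the called genes Scd1, Srebf1 and Abcg8 were thus lower and Srebf2 and Mylip higher, and the part of LXR in these values was not tested.

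The genes most like 4 of the members over the 12 mice were found by Pearson's r of log2 CPM, as a description. The mice share their group and library, so r also carries differences between groups. For Lpcat3 they were Fads3 (r = 0.902), Sc5d (0.895) and Pitrm1 (0.893), and for Pemt they were Sirt2 (0.962), Naa10 (0.957) and Lipt1 (0.948). For Pcyt1a they were Xpc (0.957), Lama3 (0.953) and Nfix (0.948), and for Chka they were Spsb3 (0.941), Nktr (0.937) and Blcap (0.937).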

How the data were processed

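The authors made poly(A) libraries, sequenced them in paired ends, aligned the reads to mm10 with STAR 2.5 and counted reads per gene with featureCounts of Subread 1.5.0-p1. The deposited values are raw read counts per gene and mouse. The gene annotation, strand setting and vehicle are not given in the sources used here. Groups and replicate numbers come from the sample labels. Members and gene lists were chosen with earlier results of these data known.

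Counts were tested in R 4.3.3 with edgeR 4.0.16: filterByExpr (minimum count 10), TMM normalization, robust quasi-likelihood fit to all 12 mice and 3 contrasts, with Benjamini-Hochberg adjustment over 13190 genes and a threshold of 0.05. SEs follow from the F statistic. DESeq2 1.42.0 was an alternative, with other scalings, filters, a replicate block and each mouse left out. The fits were also run on simulated counts with an equal spread for all genes, changes larger than any member's and no outlying mouse. That run does not show how the fits behave with small changes or with a mouse such as CLP+DCA replicate 3. CPM uses TMM-scaled library sizes, and RPKM divides by union exon length of GENCODE release M21 (GRCm38). Ratios were tested by exact permutation. Shared sequence was counted as runs of 100 bases in the M21 transcripts. Promoters are from RefSeq, GRCm38.p6, with no entry for Pcyt2. Mice of a group differed by more than sampling noise, so none was counted as a duplicate, but the labels do not say more of their separateness than a replicate number. Named genes were all members, and from each list the called genes and the 2 with the smallest p in CLP versus sham, with the 3 genes most alike for Pemt, Pcyt1a, Lpcat3 and Chka, and copies of members; Emg1, Slc51a and Gm20671 were added as genes that share sequence. A gene that this rule would name is not reported here.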

Additional observations from a re-analysis of the deposited data

Results flagged for a closer look

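In 2 of the 27 groups of 4 mice tested for a single distant value, 1 mouse lay far from the others by Dixon's criterion at the 95% level, which flags about 1 in 20 groups by chance. Pcyt1a was at 103.0 CPM in sham replicate 2, with the gap to the nearest mouse taking up 0.879 of the group's range. Lpcat1 was at 0.538 CPM in CLP+DCA replicate 2, with a gap of 0.880 of the range, and rests on 16 reads in that mouse.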

How the results depend on the processing

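The number of genes called in CLP versus sham (367) moved to 2387 with edgeR on the 8 mice compared, 3422 with DESeq2 on those 8, 1906 with DESeq2 on all 12, 209 with library size alone, 122 without a filter and 46 with a replicate block. In CLP+DCA versus sham (5) it moved to 0, 169, 243 and 3 under the first 4 of these and 0 with the replicate block. In CLP+DCA versus CLP (1) it moved to 0, 80 and 137 under the first 3 and 4 with the replicate block. Leaving out each mouse gave 10 to 3157, 1 to 11 and 0 to 616 calls in the 3 comparisons. The replicate block called no member, with smallest adjusted p of 0.110, 0.202 and 0.680 (edgeR). Deviations of same-numbered mice from their group means correlated at -0.459 to 0.550 between CLP and CLP+DCA, so the numbers were not taken to pair mice.

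Apart from leaving out a mouse, 200 member results kept direction and side of the threshold and 13 passed it in addition, and none turned. Leaving out a mouse turned 8 member values, all with an adjusted p above 0.05 (edgeR): Pemt in CLP+DCA versus CLP (range -0.0025 to 0.21, below 0 without CLP+DCA replicate 2), Chka in CLP+DCA versus sham (-0.093 to 0.47, below 0 without CLP+DCA replicate 3), Pisd in CLP+DCA versus sham (-0.082 to 0.023, above 0 without sham replicate 2 or CLP+DCA replicates 1 or 2) and CLP+DCA versus CLP (-0.023 to 0.071, below 0 without CLP+DCA replicate 3), and Etnk2 in CLP+DCA versus sham (-0.18 to 0.29, above 0 without sham replicate 4 or CLP+DCA replicate 3).

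For the ratios, the ranges without each mouse were -0.0091 to 0.17 (CLP against sham), -0.0066 to 0.26 (CLP+DCA against sham) and -0.070 to 0.19 (CLP+DCA against CLP) for Pcyt1a to Pemt, 0.15 to 0.28 (CLP against sham) and -0.027 to 0.17 (CLP+DCA against CLP) for Pcyt1a to Pcyt2, and 0.44 to 0.81 (CLP against sham) and 0.15 to 0.73 (CLP+DCA against CLP) for Lpcat2 to Lpcat3. Without sham replicate 2 (Pcyt1a to Pcyt2, CLP versus sham), sham replicate 1 (Lpcat2 to Lpcat3, CLP versus sham) or CLP+DCA replicate 4 (Lpcat2 to Lpcat3, CLP+DCA versus CLP) the exact permutation p was 0.0286, the smallest that design allows and not adjusted for the number of tests. The cause of these shifts was not tested.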
